A study of Mus musculus with 6 samples.

Results

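The 9 genes described here, P2ry12, P2ry13, Tmem119, Cx3cr1, Csf1r, Siglech, Gpr34, Selplg and Fcrls, are widely used to mark microglia in their surveying, unstimulated state. They were chosen by gene name, not by their values, though with earlier results of these data known. Each name matched 1 row among the 54532 genes measured. The data are RNA-seq of cortex taken at 12 months of age, with 3 libraries labelled Fam69c KO, a genotype the series text writes as Fam69c-/- (called KO below), and 3 labelled WT (wild type). No treatment, strain or sex is named for either group. Whether the 3 libraries of a group are 3 separate mice is not stated, so each p-value covers variation among libraries, which may be technical. Each of the 9 genes had at least 201 reads in every library, and all 9 passed the expression filter of 0.5 FPKM on the mean (FPKM, read fragments scaled to gene length and library size).

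Microglia are the resident macrophages of the brain. They descend from the yolk sac and depend on signalling through the receptor encoded by Csf1r for survival. In the healthy cortex they extend and retract processes that sense nucleotides through P2ry12 and neuronal fractalkine through Cx3cr1. In mouse models of injury and neurodegeneration the homeostatic genes are known to fall together as microglia change state, which is why they are read as a group. In a bulk tissue sample, fewer microglia and less of these RNAs per microglial cell cannot be told apart.

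Libraries held 30935326 to 35065884 reads as recovered from the deposited values. The targeted gene, Fam69c, read 1.60 ± 0.216 FPKM in KO libraries and 1.89 ± 0.285 FPKM in WT libraries (SD, n = 3 each), with 128 to 184 reads per library and overlapping groups, so its RNA level does not check the genotype labels. KO replicate 1 and WT replicate 3 stood apart in genes of striatal projection neurons, with list means of -0.58 and -1.02 log2 units around the mean of all libraries, against 0.18 to 0.54 in the other 4 libraries. The values of the group without those 2 libraries are given with the group counts.

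Per kilobase, the 9 genes covered a wide range of levels. Csf1r was the most abundant at a mean of 15.2 FPKM over the 6 libraries, a level above 75.0% of the 12987 protein-coding genes tested, and every library had more Csf1r than any library had of the next gene. Tmem119 and Cx3cr1 followed at 9.26 and 9.10 FPKM and were not separated, since Tmem119 was the higher of the pair in 3 of 6 libraries. P2ry12 averaged 7.45 FPKM and Fcrls 6.81 FPKM, with overlapping ranges and P2ry12 the higher in 4 of 6 libraries. Selplg averaged 4.87 FPKM and lay above Gpr34, at 3.52 FPKM, in every library with no overlap of ranges. P2ry13 at 3.08 FPKM and Siglech at 2.82 FPKM closed the order, with overlapping ranges. Siglech thus stood above 27.4% of the protein-coding genes tested.

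**Figure D1:**
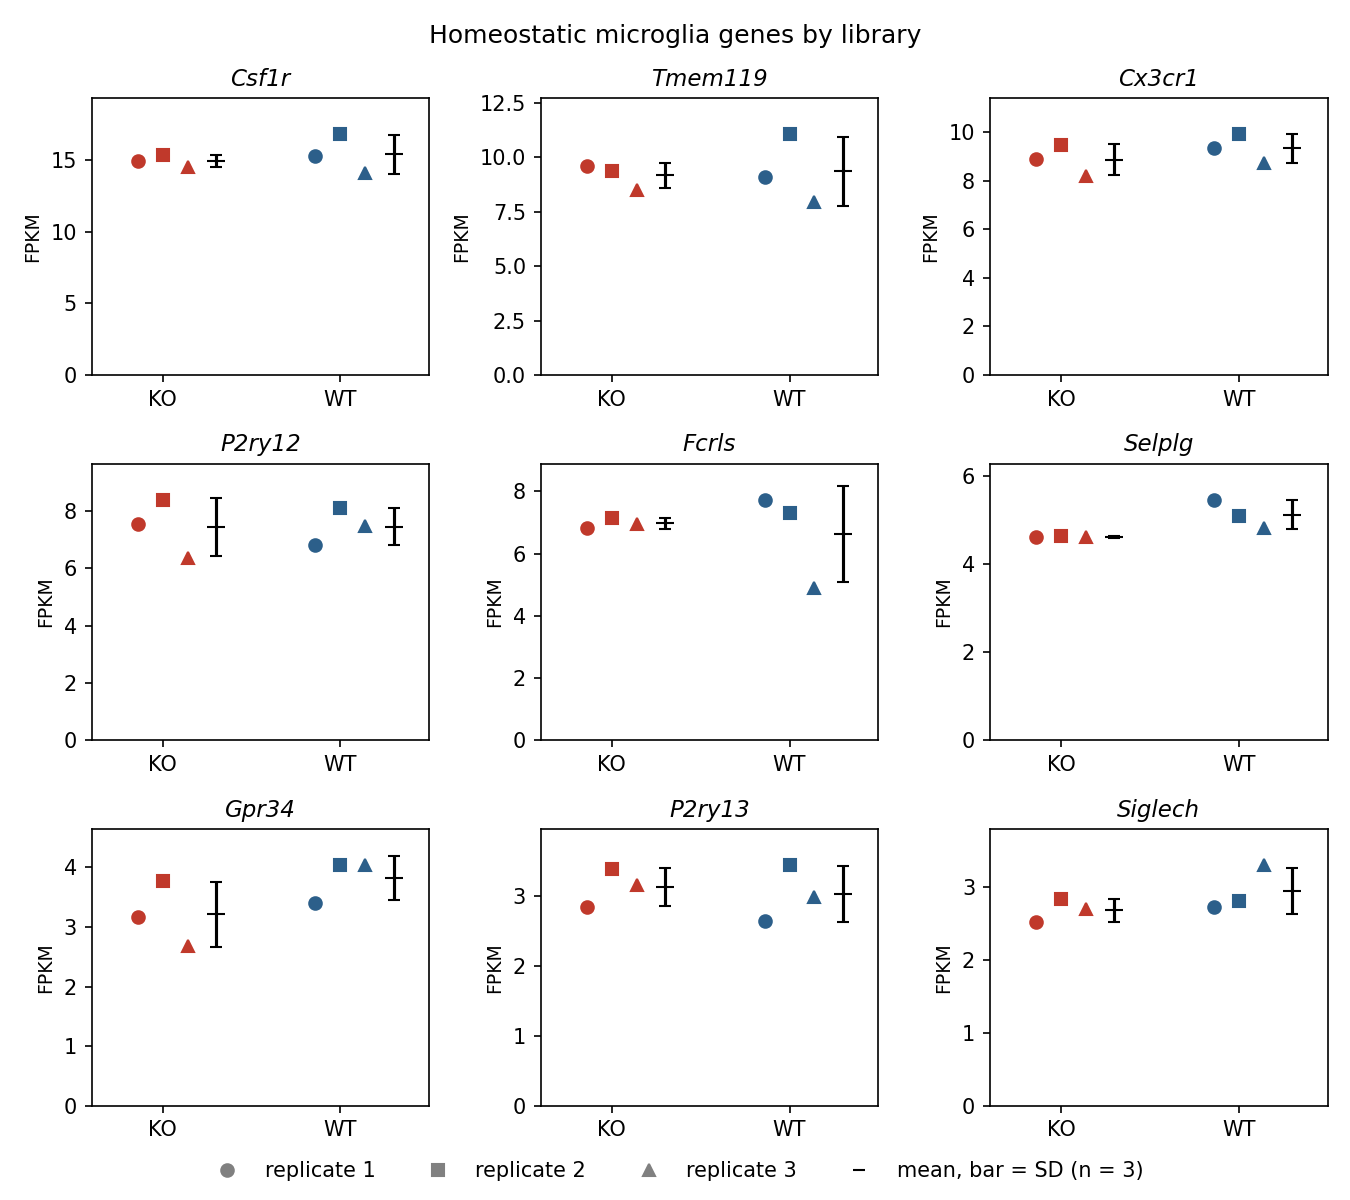
FPKM of each of the 9 genes by library, with KO libraries on the left and WT libraries on the right of each panel, symbols for the replicate number and bars for mean and SD (n = 3). The groups overlap in 8 of the 9 panels, and in the Selplg panel the KO libraries, at 4.61 to 4.65 FPKM, lie below the WT libraries, at 4.82 to 5.46 FPKM.

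The receptors for nucleotides and lipids come first. P2ry12 (ENSMUSG00000036353, mm10 chromosome 3, 59216272 to 59262871, minus strand) encodes a Gi-coupled receptor for ADP that steers microglial processes toward injury. It read 7.53, 8.40 and 6.37 FPKM in KO libraries and 6.80, 8.09 and 7.48 FPKM in WT libraries. The highest and the lowest library were both KO, and the means, 7.43 ± 1.02 FPKM in KO and 7.46 ± 0.644 FPKM in WT (SD, n = 3 each), lay well within that spread. On the log2 scale KO minus WT was -0.01 (95% CI -0.27 to 0.25), and it was 0.01 when libraries were scaled to the same sum. P2ry13 (ENSMUSG00000036362, chromosome 3, 59207892 to 59210882, minus strand), a related ADP receptor, read 2.85, 3.38 and 3.16 FPKM in KO libraries and 2.65, 3.44 and 2.98 FPKM in WT libraries. Both extremes of P2ry13 were WT libraries, and KO minus WT was 0.05 log2 units (95% CI -0.20 to 0.29). Gpr34 (ENSMUSG00000040229, chromosome X, 13632089 to 13640858, plus strand), which encodes a receptor for lysophosphatidylserine, read 3.18, 3.77 and 2.69 FPKM in KO libraries and 3.40, 4.04 and 4.04 FPKM in WT libraries. KO replicate 2 lay above WT replicate 1, so the groups overlapped. The estimate for Gpr34 was -0.23 log2 units (95% CI -0.52 to 0.06), the lowest of the 9 genes with all libraries weighted equally. Without KO replicate 3 it was -0.12, and with sample weights -0.12, and in both cases Selplg was lower, at -0.13 and -0.16.

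All 3 of these receptor genes lie inside a larger gene on the other strand. P2ry12 and P2ry13 are neighbours 5389 bases apart, with no other gene between them, inside Med12l (chromosome 3, 59005825 to 59318682), which encodes a relative of a Mediator subunit. Med12l read 2.14, 2.55 and 2.19 FPKM in KO libraries and 2.26, 2.26 and 2.18 FPKM in WT libraries. It shares 9 exon bases with P2ry12 and 0 with P2ry13 in GENCODE release M21, and KO replicate 2 was the highest library for both Med12l and P2ry12. Gpr34 lies inside Cask (chromosome X, 13517080 to 13851367), a scaffold protein gene that averaged 9.26 FPKM over the 6 libraries and shares 0 exon bases with it. The sources used here do not say whether reads were counted by strand, and the part of unspliced host RNA in these values was not tested. No 50-base stretch of the P2ry12, P2ry13 or Gpr34 transcripts occurs in a transcript of another gene.

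The sequences around the transcription start are shown for genes of the group because PU.1, the factor encoded by Spi1 that sets macrophage identity, binds purine-rich sites. RefSeq (build GRCm38.p6, the same coordinates as mm10) gives a window of 250 bases before to 50 bases after the start for 5 of the 9 genes, P2ry12, P2ry13, Cx3cr1, Siglech and Fcrls, and no window was used for Tmem119, Csf1r, Gpr34 and Selplg. The RefSeq start of P2ry13 is the first base of the deposited gene, that of P2ry12 lies 114 bases upstream of it, and those of Fcrls and Cx3cr1 lie 214 and 1583 bases downstream. Windows of 4 genes are printed 5′ to 3′ on the gene's strand: the receptor pair P2ry12 and P2ry13, Fcrls, whose spread exceeded counting error most, and Cx3cr1, which holds none of the motifs marked. Capitals mark the PU box GAGGAA and the ETS-type sequence GGAAGT, searched on both strands. TTCCTC and ACTTCC are thus the same motifs on the other strand. The shorter string GGAA, which is part of both, was not marked on its own.
P2ry12: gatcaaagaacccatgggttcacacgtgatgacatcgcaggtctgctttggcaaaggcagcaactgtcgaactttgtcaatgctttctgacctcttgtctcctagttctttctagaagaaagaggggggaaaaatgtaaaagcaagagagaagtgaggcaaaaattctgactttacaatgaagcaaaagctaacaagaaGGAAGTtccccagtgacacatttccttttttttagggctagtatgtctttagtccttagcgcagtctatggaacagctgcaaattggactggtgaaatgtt
P2ry13: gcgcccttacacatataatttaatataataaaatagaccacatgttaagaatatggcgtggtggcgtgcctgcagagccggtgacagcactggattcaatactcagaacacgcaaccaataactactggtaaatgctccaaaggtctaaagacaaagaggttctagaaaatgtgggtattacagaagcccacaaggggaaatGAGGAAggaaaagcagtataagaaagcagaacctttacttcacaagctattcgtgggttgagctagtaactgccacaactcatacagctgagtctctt
Fcrls: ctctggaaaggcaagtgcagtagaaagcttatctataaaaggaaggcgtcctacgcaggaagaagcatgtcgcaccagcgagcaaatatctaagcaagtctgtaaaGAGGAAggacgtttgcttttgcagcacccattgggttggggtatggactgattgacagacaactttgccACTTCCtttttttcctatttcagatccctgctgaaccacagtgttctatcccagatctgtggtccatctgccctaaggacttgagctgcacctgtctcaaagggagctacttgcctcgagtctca
Cx3cr1: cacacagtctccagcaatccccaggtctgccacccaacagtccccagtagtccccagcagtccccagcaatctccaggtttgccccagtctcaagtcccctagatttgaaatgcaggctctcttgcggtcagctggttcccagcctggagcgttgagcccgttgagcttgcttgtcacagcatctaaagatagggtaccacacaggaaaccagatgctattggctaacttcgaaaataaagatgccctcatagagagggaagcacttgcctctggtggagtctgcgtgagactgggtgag

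These windows span chr3:59262936-59263235 for P2ry12, chr3:59210833-59211132 for P2ry13, chr3:87263475-87263774 for Fcrls and chr9:120068247-120068546 for Cx3cr1, all on the minus strand. P2ry12 holds the ETS-type sequence, starting 51 bases before the start base, and P2ry13 the PU box, starting 48 bases before it. Fcrls and Siglech hold both motifs. A PU box or the ETS-type sequence GGAAGT was found in 4 of the 5 windows and in 43.4% of all 32851 windows of that length. The PU box alone was found in 3 of 5 and 28.3%, and GGAAGT in 3 of 5 and 23.8%. Of the other motifs searched on both strands, CCAAT was in 4 of 5 windows and 37.4% of all, TATAAA in 1 of 5, Fcrls, and 13.6%, and the SMAD sequence CAGACA in 2 of 5, Fcrls and Siglech, and 21% of all. P2ry12 and P2ry13 windows are both 42.3% G and C, lower than the median of 52.7% over all windows. A match in letters is a description and does not show that a factor binds.

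Csf1r and Cx3cr1 bind ligands made by neurons and other cells of the brain. Csf1r (ENSMUSG00000024621, chromosome 18, 61105572 to 61132149, plus strand) encodes the receptor tyrosine kinase for CSF1 and IL-34. It read 14.9, 15.4 and 14.5 FPKM in KO libraries and 15.3, 16.8 and 14.1 FPKM in WT libraries, from 2290 to 2543 reads. The 3 KO values lay between the lowest and the highest WT value, and KO minus WT was -0.04 log2 units (95% CI -0.21 to 0.13). The 3′ end of Csf1r overlaps the end of Hmgxb3 on the other strand over 871 bases of the deposited spans. In GENCODE release M21 the pair shares 873 exon bases, 15.1% of those of Csf1r. Of the 50-base stretches of Csf1r transcripts, 14.3% occur in Hmgxb3 transcripts on either strand. The deposited length of Csf1r is 4885 bases, against 5774 exon bases in that release, and its span differs too. Hmgxb3 read 9.63, 9.74 and 10.2 FPKM in KO libraries and 9.93, 9.93 and 9.14 FPKM in WT libraries, and how many reads the pair shares was not tested. Cx3cr1 (ENSMUSG00000052336, chromosome 9, 119901616 to 120069879, minus strand) encodes the fractalkine receptor. It read 8.89, 9.49 and 8.22 FPKM in KO libraries and 9.35, 9.92 and 8.72 FPKM in WT libraries, from 1303 to 1426 reads. WT replicate 2 was the highest library and KO replicate 3 the lowest, with the others mixed between them. The estimate was -0.07 log2 units (95% CI -0.24 to 0.10). The deposited span of Cx3cr1 runs over 8 other annotated genes that it shares no exon base with and 1 that it does, the antisense gene Gm33858, with 78 bases, which averaged 0.136 FPKM.

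The remaining members encode surface proteins of other kinds. Tmem119 (ENSMUSG00000054675, chromosome 5, 113793729 to 113800516, minus strand), a membrane protein used to tell microglia from blood-derived macrophages, read 9.61, 9.39 and 8.49 FPKM in KO libraries and 9.10, 11.1 and 7.93 FPKM in WT libraries. Both extremes were WT, and KO minus WT was -0.02 log2 units (95% CI -0.30 to 0.26), or 0.00135 with libraries scaled to the same sum. Siglech (ENSMUSG00000051504, chromosome 7, 55768178 to 55778925, plus strand), a protein of the Siglec family that signals through the adaptor DAP12, read 2.52, 2.84 and 2.71 FPKM in KO libraries and 2.72, 2.81 and 3.31 FPKM in WT libraries. WT replicate 3 was the highest and the others were close together, with KO minus WT at -0.11 log2 units (95% CI -0.32 to 0.10). Without the 2 libraries low in striatal genes the Siglech value was 0.00113.

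Fcrls (ENSMUSG00000015852, chromosome 3, 87250758 to 87263738, minus strand), a scavenger receptor related to the Fc receptors, read 6.81, 7.16 and 6.94 FPKM in KO libraries and 7.73, 7.32 and 4.88 FPKM in WT libraries. A single library, WT replicate 3, lay below all others, with 378 reads against 524 to 580. With all libraries KO minus WT was 0.09 log2 units (95% CI -0.28 to 0.46), and without WT replicate 3 it was -0.10 (limma adjusted p = 0.782). The same library was the lowest for Csf1r and Tmem119 and the highest for Gpr34 and Siglech. For Gpr34 it barely exceeded WT replicate 2, at 4.0393 against 4.0379 FPKM. Over all genes tested WT replicate 3 was the lowest library for 20.6% and the highest for 19.7%.

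Selplg (ENSMUSG00000048163, chromosome 5, 113818536 to 113832644, minus strand) encodes PSGL-1, the ligand of P-selectin, which blood leukocytes carry too. It lies 18019 bases from Tmem119, with 1 noncoding gene between them. Selplg read 4.61, 4.65 and 4.61 FPKM in KO libraries and 5.46, 5.08 and 4.82 FPKM in WT libraries, with every KO library below every WT library. Its means were 4.62 ± 0.0216 FPKM in KO and 5.12 ± 0.323 FPKM in WT (SD, n = 3 each), and KO minus WT was -0.13 log2 units with a 95% CI from -0.28 to 0.02 (limma unadjusted p = 0.0736, Benjamini-Hochberg adjusted p = 0.999). The 3 KO values were closer to each other than counting error alone gives for such read numbers, an SD of 0.186 FPKM.

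Across the group, 0 of 9 genes passed an adjusted p of 0.05 in limma and 0 had an unadjusted p under 0.05, where 0% of the 15694 genes tested passed and 3.82% had an unadjusted p under 0.05. The adjusted p was 0.999 for each of the 9. With voom on the recovered reads 0 of 9 passed as well. In 3 alternatives 1 of the 9 had an unadjusted p under 0.05 in limma, namely Selplg with sample weights and without WT replicate 3, and Gpr34 without KO replicate 2. Over all genes 1420 of 15694 had one with sample weights, 1024 of 15674 without WT replicate 3 and 429 of 15712 without KO replicate 2. Estimates were below 0 for 7 genes and above 0 for 2, P2ry13 and Fcrls, and 52.0% of all genes tested were below 0. The median log2 fold change was -0.04, from -0.23 for Gpr34 to 0.09 for Fcrls, beside -0.004 over all genes. Groups did not overlap for 1 of 9 genes, Selplg, while 8.87% of all genes tested had groups that did not overlap, and 4.7% had them with KO lower. Without KO replicate 1 and WT replicate 3 together, 0 of 9 passed and the median was -0.10. Selplg and Fcrls were then without overlap, where 47.2% of all genes were.

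For each gene taken alone, the intervals limit how large a mean difference could be between sets of libraries like those sampled here. They apply to the genotypes only if the 3 libraries of a group are separate mice, which is not stated. The 95% intervals reached 0.15 to 0.37 log2 units to either side of the estimates, narrowest for Selplg and widest for Fcrls. All 9 intervals lay within 1 log2 unit of no change, and 8 of 9 within 0.5, with Gpr34 reaching -0.52. The SD between libraries of a group was 1.23 times the SD that counting alone gives for Selplg and 3.68 times for Fcrls, the ends of the range, with 3.26 times for Csf1r and 2.85 times for P2ry12.

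**Figure D2:**
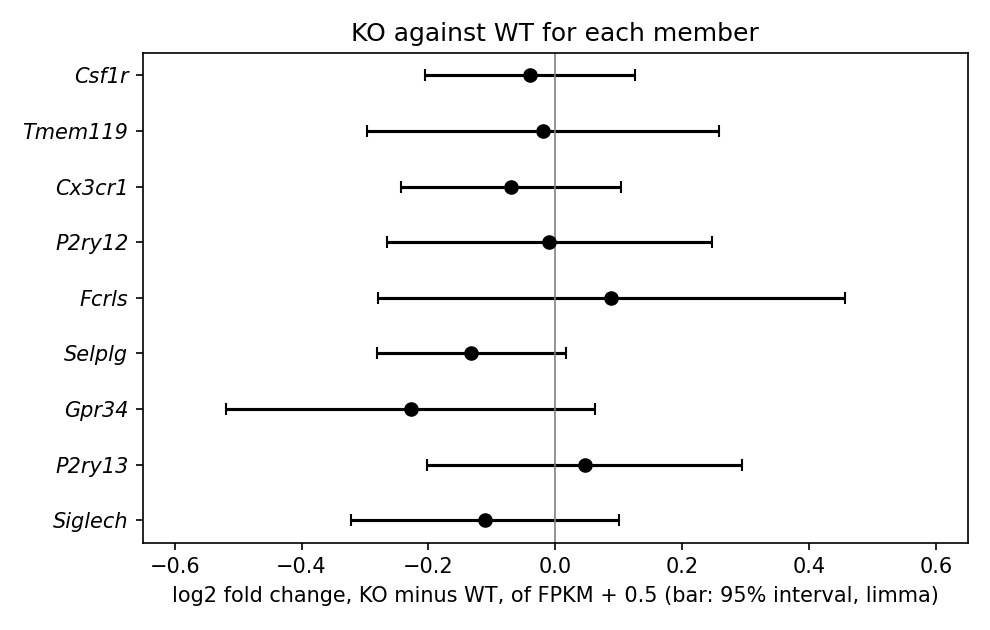
Log2 fold change of each gene, KO minus WT, on the log2(FPKM + 0.5) scale, with its 95% interval from limma as a bar. Every interval crosses 0, from Selplg, which reaches 0.02 above it, to P2ry12, centred at -0.01.

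Libraries of the same group differed in many of the 9 genes at once. In WT replicate 2 all 9 genes were above their own mean over the 6 libraries, and in KO replicate 2 8 of 9 were. In KO replicate 3 2 of 9 were above their mean, and in KO replicate 1 and WT replicate 3 3 of 9 each. Over all genes tested these shares ran from 48.3% to 51.8% per library. The 9 genes did not all move together. A gene had the same sign as the mean of the other 8 in 3 of 6 libraries (P2ry12 and Fcrls) to 5 of 6 (Cx3cr1 and Csf1r). The mean of the 9 centred log2 values was -0.04, 0.06 and -0.10 in KO libraries and 0.00065, 0.13 and -0.05 in WT libraries. WT replicate 2 held the highest value of 4 of the 9 genes, Csf1r, Tmem119, Cx3cr1 and P2ry13, and of 15.0% of all genes tested. Without it the median log2 fold change of the 9 turned to 0.02, with 4 genes below 0.

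**Figure D3:**
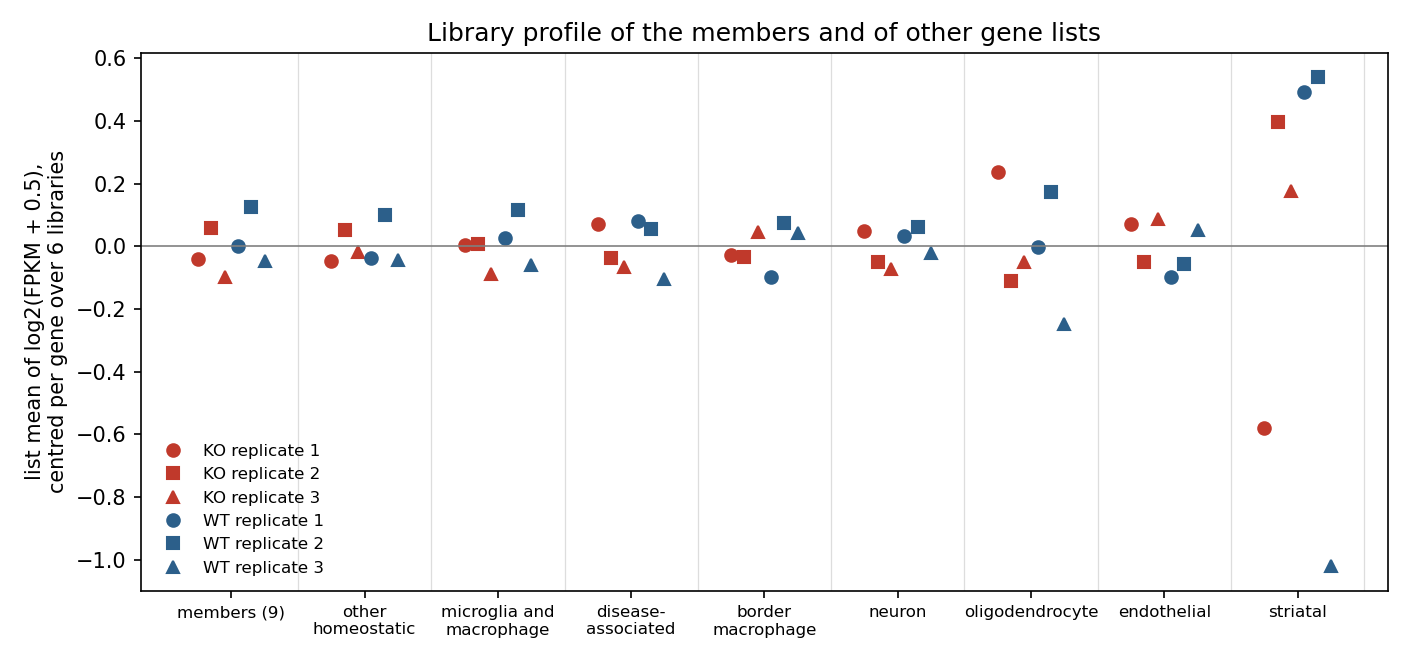
List means of log2(FPKM + 0.5), centred per gene over the 6 libraries, for the 9 genes and for 8 other lists, with KO libraries in red left of WT libraries in blue and symbols for the replicate number. WT replicate 2 is the highest point for the 9 genes, at 0.13, and KO replicate 1 and WT replicate 3 stand at -0.58 and -1.02 in striatal genes.

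The summed level of the 9 genes was 60.9, 64.4 and 57.7 FPKM in KO libraries and 62.5, 68.6 and 58.3 FPKM in WT libraries, a mean of 61.0 ± 3.36 FPKM in KO and 63.1 ± 5.18 FPKM in WT (SD, n = 3 each). The lowest library of all was KO and the highest WT, with the other 4 mixed. Within the sum, the shares of some genes varied more than those of others. Csf1r held 24.5 ± 0.665% of it in KO libraries and 24.4 ± 0.153% in WT libraries, and Cx3cr1 held 14.5 ± 0.254% in KO libraries and 14.8 ± 0.285% in WT libraries. P2ry12 held 12.1 ± 1.01% in KO libraries and 11.8 ± 0.978% in WT libraries. Gpr34 held 5.24 ± 0.602% in KO libraries and 6.08 ± 0.764% in WT libraries, with KO replicate 3 lowest at 4.65% and WT replicate 3 highest at 6.93%. In WT replicate 3 Fcrls held 8.38% of the sum, against 10.7% to 12.4% in the other libraries, and Siglech 5.67%, against 4.10% to 4.69%.

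**Figure D4:**
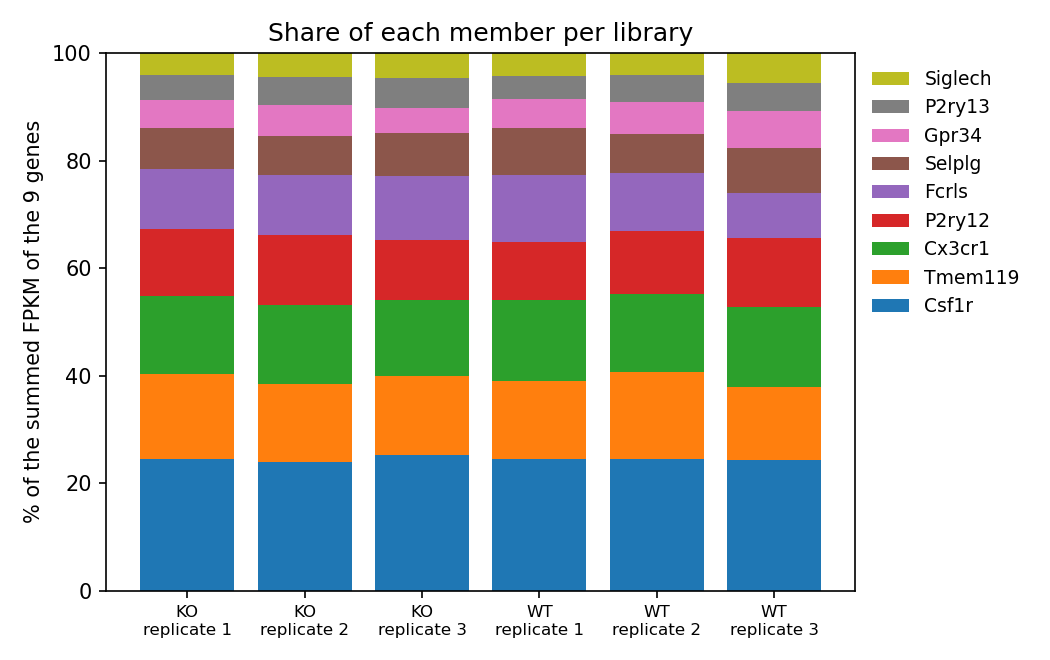
Share of each gene in the summed FPKM of the 9 genes, stacked to 100% per library, with the 3 KO libraries left of the 3 WT libraries. Csf1r takes 23.9% to 25.2% in every library, and the Fcrls share is smallest in WT replicate 3, at 8.38%.

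The ligands of these receptors were measured in the same libraries. Cx3cl1, the fractalkine made by neurons, read 235 ± 4.71 FPKM in KO libraries and 220 ± 15.2 FPKM in WT libraries, far above its receptor. Of the CSF1 receptor's ligands, Il34 read 31.9 ± 0.609 FPKM in KO and 30.5 ± 1.41 FPKM in WT, and Csf1 4.36 ± 0.309 FPKM in KO and 3.94 ± 0.370 FPKM in WT. Selp, the P-selectin that binds the Selplg product, had at most 1 read in any library. In the list of ligands and of enzymes that make, shed or remove them, 10 of 13 genes were tested, 0 passed in either direction, and 7 were above and 3 below 0 with a median of 0.02. Among downstream signalling partners, such as the adaptor Grb2, 9 of 12 were tested and 0 passed, with 2 above and 7 below 0 and a median of -0.04.

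Transcription factors that set microglial identity gave 0 of 10 tested genes past the threshold, with 3 above and 7 below 0 and a median of -0.01. Spi1, which encodes PU.1, read 1.51 ± 0.0616 FPKM in KO libraries and 1.64 ± 0.151 FPKM in WT libraries. Sall1, a repressor needed for the homeostatic program, read 4.49 ± 0.401 FPKM in KO and 4.72 ± 0.305 FPKM in WT. TGF-β signalling maintains this program, and 0 of its 10 genes passed, with 3 above and 7 below 0 and a median of -0.07. Groups did not overlap for 2 of these 10 genes, Nrros and Ski, beside 8.87% of all genes tested. Nrros, a microglial protein that presents TGF-β1, read 1.28 ± 0.0844 FPKM in KO libraries and 1.54 ± 0.0449 FPKM in WT libraries. Its difference was -0.20 log2 units with a 95% CI from -0.40 to 0.01 (limma adjusted p = 0.999).

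Other genes of microglia and macrophages did not pass either. Of 12 other homeostatic genes tested 0 passed, with 7 above and 5 below 0 and a median of 0.02. Mertk, a receptor for dying cells that astrocytes express too, had the smallest unadjusted p of that list, 0.00574, at 8.69 ± 0.0687 FPKM in KO libraries and 10.1 ± 0.413 FPKM in WT libraries, and did not pass (limma adjusted p = 0.999). Of 19 general microglia and macrophage genes 0 passed, with 6 above and 13 below 0 and a median of -0.07. Their summed level was 2.93 ± 0.121 times that of the 9 genes in KO libraries and 3.01 ± 0.185 times in WT libraries. For genes that rise in disease-associated microglia 0 of 10 tested passed, with 3 above and 7 below 0 and a median of -0.03. Of this list, Itgax and Clec7a were below the filter, with at most 15 and 18 reads in any library, while others were well measured. Axl read 8.87 ± 0.658 FPKM in KO libraries and 9.45 ± 0.361 FPKM in WT libraries. Spp1 read 5.82 ± 0.673 FPKM in KO and 6.62 ± 0.531 FPKM in WT. Cd52 went the other way, at 1.02 ± 0.310 FPKM in KO and 0.740 ± 0.219 FPKM in WT. The sum of that list, most of it Apoe, which astrocytes also make, was 12.6 ± 0.850 times the sum of the 9 genes in KO libraries and 13.3 ± 0.983 times in WT libraries (SD, n = 3 each). Of the 12, 19 and 10 genes tested in these lists, 1 had an unadjusted p under 0.05 in limma, Mertk. In the ligand, signalling, transcription factor and TGF-β lists 0 genes had one. Over all genes tested the share was 3.82%.

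Most markers of other cells that express some of the 9 genes were low. Border-associated macrophages share Csf1r and Cx3cr1, and their 11 markers summed to 5.26 to 5.90 FPKM in KO libraries and 4.96 to 5.80 FPKM in WT libraries, with 0 of 5 tested genes past the threshold. Monocyte and neutrophil markers, 10 in all, summed to 0.475 to 3.81 FPKM in KO and 0.334 to 2.06 FPKM in WT, and 9 of them were below the filter. Platelets carry P2ry12, and their 6 markers, each below the filter, summed to 1.07 to 1.22 FPKM in KO libraries and 0.891 to 1.25 FPKM in WT libraries. Plasmacytoid dendritic cells carry Siglech, and of their 4 markers Cd300c had no read in any library while Ccr9 and Klk1 had at most 14 and 6. The other, Ly6d, did not overlap between groups, which held for 8.87% of all genes tested. Ly6d read 1.16 ± 0.0948 FPKM in KO libraries and 1.73 ± 0.416 FPKM in WT libraries (limma unadjusted p = 0.0263, adjusted p = 0.999). An unadjusted p under 0.05 was reached by 3.82% of all genes tested. The part of Ly6d-expressing cells in the Siglech value was not tested. For lymphocytes 6 of 7 markers lay below the filter, and Trbc2, at 18.3 ± 4.01 FPKM in KO and 17.8 ± 1.90 FPKM in WT, was the exception, with Cd3e at no more than 6 reads. The other P2Y-type receptors were low beside P2ry12 and P2ry13: P2ry6 read 0.920 ± 0.0940 FPKM in KO libraries and 0.969 ± 0.267 FPKM in WT libraries, and P2ry14 and Gpr171 were below the filter.

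Markers of other brain cells also gave 0 genes past the threshold in limma. An unadjusted p under 0.05 was reached by 2 of 6 astrocyte markers, 1 of 5 red blood cell genes and 1 of 6 immediate early genes. The 1 choroid plexus marker tested reached it too. Over all genes tested the share was 3.82%. Medians were -0.02 for 6 neuron markers, -0.01 for 6 astrocyte markers, 0.08 for 6 oligodendrocyte markers, -0.05 for 4 precursor markers, 0.08 for 6 endothelial markers and 0.05 for 5 pericyte markers. Red blood cell genes were below 0 for 5 of 5, with a median of -0.14 and KO replicate 2 lowest at 73.7 FPKM in sum, against 110 to 126 FPKM in the other 5 libraries. Immediate early genes were below 0 for 6 of 6, with a median of -0.35. Striatal genes had a median of 0.03, and of 4 choroid plexus markers 1 was tested. That was Ttr, a transthyretin gene of choroid plexus, at 8.91, 7.58 and 3.50 FPKM in KO libraries and 2.10, 3.10 and 2.79 FPKM in WT libraries. It was without overlap, as were 8.87% of all genes tested, and not past the threshold (limma adjusted p = 0.999). The choroid plexus markers below the filter overlapped between groups. Folr1 read 0.150 ± 0.0807 FPKM in KO libraries and 0.190 ± 0.0770 FPKM in WT libraries. Kl read 0.295 ± 0.0168 FPKM in KO and 0.317 ± 0.0423 FPKM in WT, and Clic6 0.511 ± 0.160 FPKM in KO and 0.467 ± 0.186 FPKM in WT. Relatives of Siglech, Fcrls and Csf1r gave 0 of 5 tested genes past the threshold. The part of these differences in the values of the 9 genes was not tested.

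Among the 13475 genes ranked, all at 1 FPKM or more on average, the library profiles most like the mean profile of the 9 genes were those of Xpr1, Zfp809, Gm25107, Zfp213 and Schip1. Likeness was measured by Pearson's r over the 6 libraries, which was 0.987, 0.984, 0.975, 0.973 and 0.973 in that order and is given as a description only, since all values of a library share its depth and 6 points leave many profiles alike. The median r over all ranked genes was 0.05. General microglia and macrophage genes had a median r of 0.56, from -0.19 to 0.86 for C1qb over 17 genes. Other homeostatic genes had 0.35, from -0.30 to 0.80 for Slc2a5 over 10 genes. The 8 striatal genes had a median r of 0.55, from 0.51 to 0.62, and disease-associated microglia genes had 0.40. Neuron markers had 0.20 over 6 genes, from 0.01 to 0.96 for Gad2. Transcription factors of microglia had -0.04 over 8 genes, from -0.76 to 0.86 for Spi1. The median was 0.33 for oligodendrocyte, -0.18 for astrocyte and -0.49 for endothelial markers, and -0.06 for immediate early genes. Xpr1, a phosphate exporter, followed the profile with a narrow range, at 7.34, 7.62 and 7.25 FPKM in KO libraries and 7.50, 7.75 and 7.30 FPKM in WT libraries.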

How the data were processed

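RNA of 3 KO and 3 WT cortex libraries was extracted with Trizol and made into libraries with an Illumina TruSeq kit, per the labels' protocols. The submitters' processing notes name Bowtie, without a version, and mm10. No label or header states the counter, its use of strand or its annotation. The authors deposited FPKM, 1 column per library. Values times gene length were whole multiples of 1 step per library for 100% of values above 0 (within 0.001 reads, growing in proportion above 1000 reads), which gave the reads; gene spans were the same as in GENCODE M21 for 98.1% of genes.

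From the deposited FPKM, log2(FPKM + 0.5) of the 15694 genes averaging 0.5 FPKM or more was compared between groups with limma 3.58.1 in R 4.3.3, with a variance trend and no block, two-sided, with Benjamini-Hochberg adjustment over all genes tested and a threshold of 0.05. Differences are given on this scale, which understates those of low genes. The closest pair of libraries differed by a median chi-square of 2.88 times sampling noise, so none was counted as a duplicate. Members, lists and alternatives were chosen with earlier results of these data known. Named genes are the members, up to 4 per list with the smallest p, ligands, Fam69c, overlapping genes and the 5 most alike. Itgax, Clec7a, Cd3e, Ccr9, Klk1, Cd300c, C1qb, Slc2a5, P2ry14, Gpr171, Folr1, Kl and Clic6 were added after their values were seen. Motifs were counted in RefSeq windows with Python 3.11.15, and plots drawn with matplotlib 3.10.9.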

Additional observations from a re-analysis of the deposited data

How the results depend on the processing

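Over 17 alternatives, 0 of the 9 genes passed the threshold, with adjusted p from 0.395 upward (limma). Genes past it over all genes numbered 0, except for 1 with voom on recovered reads (Rps27rt, with 522 at an unadjusted p under 0.05) and 1 without both KO replicate 1 and WT replicate 3 (Gm47283). The median log2 fold change of the 9 genes, -0.04 with all libraries, ran from -0.10 without WT replicate 3 to 0.02 without WT replicate 2, each shift being smaller than the SD of 0.0846 between libraries of a group. Cx3cr1, Gpr34 and Selplg kept their sign in all 17. Of 153 values 14 changed sign. With libraries scaled to the same sum P2ry12 was 0.0108 and Tmem119 0.00135. With sample weights P2ry12 was 0.0589 and Fcrls -0.0189. Without both KO replicate 1 and WT replicate 3 Siglech was 0.00113 and Fcrls -0.0883. Leaving out 1 library at a time gave P2ry12 -0.0962 to 0.0903, P2ry13 -0.0324 to 0.130, Tmem119 -0.127 to 0.101, Csf1r -0.0991 to 0.0232, Fcrls -0.103 to 0.203, Cx3cr1 -0.118 (without KO replicate 2) to -0.0195 (without KO replicate 3), Siglech -0.157 (without WT replicate 1) to -0.0373 (without WT replicate 3), Gpr34 -0.335 (without KO replicate 2) to -0.123 (without KO replicate 3) and Selplg -0.171 to -0.0891. Genes of the 9 without overlap numbered 1 to 3 when 1 library was left out (3 without KO replicate 2, 2 without WT replicate 1 or WT replicate 3) and 2 without both libraries, where fewer samples raise the share over all genes to between 15% and 47.2%. With the replicate number as a block the median was -0.0402 and 0 genes passed (837 at an unadjusted p under 0.05, limma, against 599). Deviations from the group means correlated at r = 0.0816, 0.0135 and 0.210 between same-numbered libraries, and at -0.164 to 0.113 between differently numbered ones. The highest r was that of replicate 3, but 0.0816 and 0.0135 lay within the range of the differently numbered pairs. The numbers were therefore not used as pairs. The causes of the changes of sign were not tested.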
